A study of Sus scrofa with 9 samples.

Results

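The genes described here serve the uptake of fatty acids by the heart and its control. They are LPL, ANGPTL4, CD36, FABP3, ACSL1, CPT1A, PPARA and PDK4, 8 of the 3952 genes in the deposited table. They were chosen by symbol, through the RefSeq accession of each row, and the position with the longest annotated span stood for a gene. The assay was GRO-seq, in which polymerases already engaged on DNA extend their RNA in isolated nuclei, so that it counts RNA being made and not RNA in store, here in the myocardium of 3 pigs. An embolization coil had closed the distal left anterior descending artery of every pig 24 hours before the tissue was taken. Each pig gave 1 ischemic, 1 border zone and 1 healthy sample, so each group held 3 libraries, and the healthy samples came from the same infarcted hearts. The tissue was dissociated with collagenase and filtered before nuclei were prepared, so the libraries hold all cell types that passed this step.

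The working heart takes most of its energy from fatty acids. Lipoprotein lipase (LPL) on the capillary wall frees them from circulating triglycerides and ANGPTL4 inhibits it. CD36 carries them across the cell membrane, FABP3 binds them in the cytosol, ACSL1 links them to coenzyme A and CPT1A hands them to carnitine at the mitochondrial outer membrane. PPARA is the nuclear receptor that fatty acids activate to switch on these genes, and PDK4, one of its known targets, blocks pyruvate dehydrogenase and so the burning of glucose.

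Values are RPKM, reads scaled to the length of the annotated span and to the depth of the library, so intron reads count and levels can be compared between genes. Library totals were 883656 to 2134087 reads in ischemic, 2187977 to 7005976 in border zone and 2730083 to 6531658 in healthy myocardium. These totals were inferred from the RPKM values themselves. Ischemic libraries were the shallowest, so their values rest on the fewest reads. The heart muscle list, 12 genes of which 8 were in the table and none of these at 0, summed to 60.1 to 203 RPKM in ischemic, 149 to 255 RPKM in border zone and 320 to 541 RPKM in healthy libraries. The macrophage list, 9 genes with 6 in the table and CD163 listed at 0, summed to 23.5 to 25.2, 12.5 to 16.2 and 1.10 to 1.70 RPKM in the same order. In such mixed tissue, fewer cells of a type and less RNA per cell cannot be told apart.

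Of the 8 members, all of which passed the filter of a mean of at least 0.5 RPKM, CD36 and PPARA fell in ischemic against healthy myocardium (limma, Benjamini-Hochberg adjusted p under 0.05 over 2384 positions). None rose and 6 did not pass, with 4 at an unadjusted p under 0.05. Of all positions tested, 27.6% passed, 9.1% as lower and 18.5% as higher (442 higher and 217 lower, against 337 and 295 with median scaling and 249 and 251 with quantile normalization). The groups did not overlap for 4 members, all lower, against 14.9% of all positions lower and 28.4% higher without overlap. The median log2 fold change was -1.06 over the members and 0.21 over all positions. In border zone against healthy myocardium CD36 fell and 7 did not pass, with 6% of all positions called, 5.79% as higher and 0.21% as lower. There 3 members were lower and 2 higher without overlap, against 6.71% and 25.7% of all positions. Medians were -0.49 over the members and 0.22 over all positions. In ischemic against border zone myocardium 0 members passed in limma, 2 had an unadjusted p under 0.05, and 1 passed by limma-voom on recovered reads, with 1.13% of all positions called, 0.965% as lower and 0.168% as higher. The groups did not overlap for CD36 and PPARA, both lower, against 11.5% of all positions lower and 8.56% higher. The 3 comparisons share their libraries in pairs and are not independent of each other. Fold changes below come from means of log2(RPKM + 0.1), which understates the change of weakly transcribed genes.

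**Figure D1:**
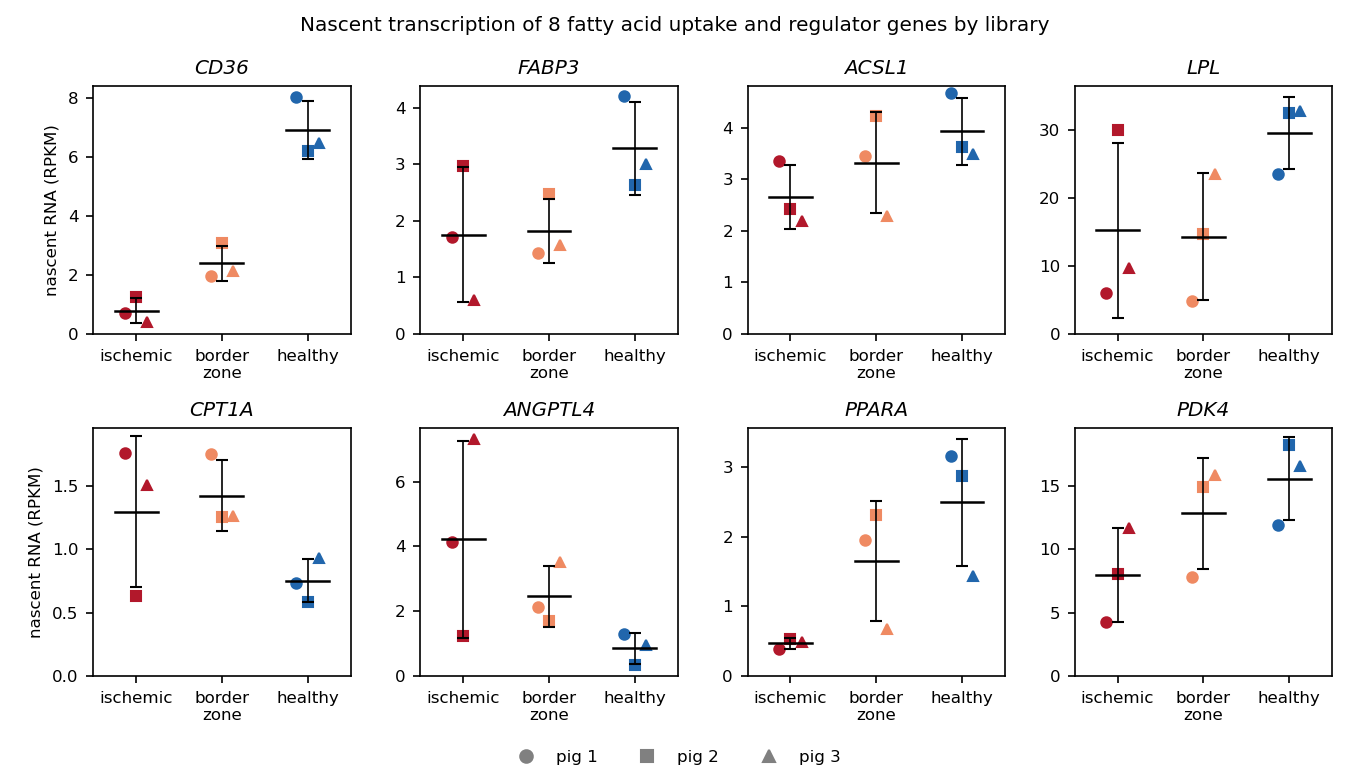
RPKM of each member in each library, by group, with the mean (bar) and SD (whiskers) of 3 libraries and a symbol for each pig. CD36 has no overlap between any of the 3 groups, with ischemic libraries from 0.416 to 1.25 RPKM and healthy libraries from 6.20 to 8.01 RPKM.

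**Figure D2:**
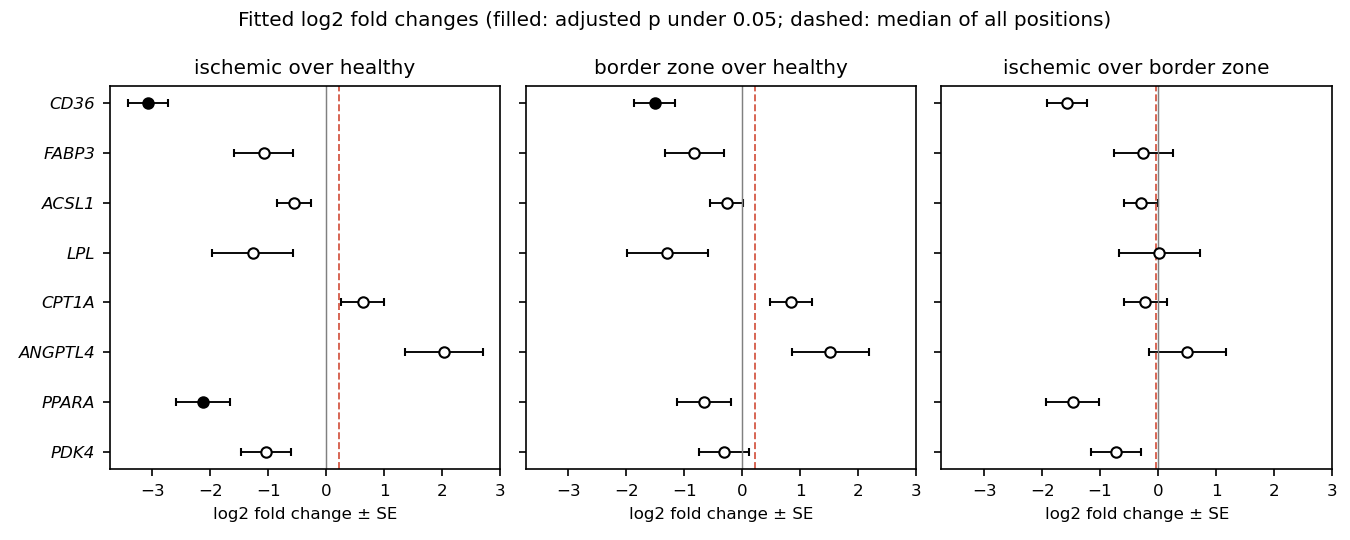
Fitted log2 fold change ± SE of the 8 members in the 3 comparisons, on a common axis, with filled symbols for an adjusted p under 0.05 and a dashed line at the median of all positions tested. CD36 (-3.08 and -1.51) and PPARA (-2.13) carry the filled symbols, and ANGPTL4 and CPT1A are the members to the right of 0 in both comparisons with healthy myocardium.

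LPL, the enzyme that frees fatty acids in the capillary, had 6.01, 30.0 and 9.67 RPKM in ischemic, 4.81, 14.6 and 23.4 RPKM in border zone and 23.5, 32.4 and 32.7 RPKM in healthy replicates 1 to 3, where a replicate number is a pig. Every healthy library was above every border zone library by a narrow margin, and ischemic replicate 2 lay among the healthy libraries. The log2 fold change was -1.27 ± 0.70 in ischemic (± SE, limma adjusted p = 0.209) and -1.29 ± 0.70 in border zone against healthy myocardium (adjusted p = 0.331). Single libraries moved both values. The ischemic one was -0.77 without ischemic replicate 1 and -1.92 without ischemic replicate 2 (adjusted p = 0.465 and 0.0546), and the border zone one was -0.65 without border zone replicate 1 (adjusted p = 0.724). LPL is annotated on the susScr3 build by a single exonic piece of 234 base pairs (NM_214286, chromosome 14 from 4456506 to 4456740, minus strand), so its RPKM rests on few reads and on no intron. It held 13 reads over the ischemic, 40 over the border zone and 91 over the healthy libraries. The pooled ratio was 0.436 for ischemic over healthy (exact 95% counting interval 0.224 to 0.783) and 0.438 for border zone over healthy (0.294 to 0.641). These intervals cover counting error and not the spread between pigs.

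ANGPTL4, the secreted inhibitor of LPL and itself a known PPAR target (NM_001038644, chromosome 2 from 71272459 to 71279585, minus strand, 7126 base pairs), went the other way. It had 4.14, 1.23 and 7.31 RPKM in ischemic, 2.13, 1.70 and 3.53 RPKM in border zone and 1.29, 0.328 and 0.945 RPKM in healthy replicates 1 to 3. It was higher than healthy in 3 of 3 pigs in both zones, and border zone did not overlap healthy, whereas ischemic replicate 2 lay just under healthy replicate 1. The log2 fold change was 2.03 ± 0.67 in ischemic against healthy myocardium (limma adjusted p = 0.0541) and 1.52 ± 0.67 in border zone against healthy (adjusted p = 0.236). With pig as a block, the ischemic difference passed (limma adjusted p = 0.0114), and it also passed without ischemic replicate 2 (log2 fold change 2.72, adjusted p = 0.0113), by limma-voom (adjusted p = 0.0169) and with a filter at 2 RPKM (adjusted p = 0.0404). At a healthy mean of 0.853 RPKM, ANGPTL4 cleared the filter at 2 RPKM only through the other zones, so that pass adds no support. With no filter it did not pass (limma adjusted p = 0.0843). Over 20 alternatives the adjusted p ranged from 0.0113 to 0.166. Behind these levels stood 63, 10 and 46 reads in ischemic and 25, 8 and 44 reads in healthy replicates 1 to 3.

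The RNA levels of the enzyme and its inhibitor can be set against each other within a library, where scaling enters only through the added 0.1 RPKM. They are levels of RNA being made, not of protein, and LPL rests on 3, 8 and 2 reads in ischemic replicates 1 to 3. The log2 ratio of LPL over ANGPTL4 was 0.53, 4.50 and 0.40 in ischemic, 1.14, 3.03 and 2.70 in border zone and 4.09, 6.25 and 4.97 in healthy replicates 1 to 3. It was lower than healthy in 3 of 3 pigs in both zones, and border zone did not overlap healthy. The mean difference was -3.30 for ischemic over healthy (exact permutation test, 2-sided, p = 0.2, adjusted p = 0.3) and -2.81 for border zone over healthy (p = 0.1, adjusted p = 0.3 by the same exact test). With 3 libraries against 3, the smallest p this test allows is 0.1, and 6 such ratios were tested. Ischemic replicate 2 was the library at 4.50, and without it the difference from healthy was -4.64.

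CD36, the membrane transporter of long-chain fatty acids (NM_001044622, chromosome 9 from 110040077 to 110102645, minus strand, 62568 base pairs with 3.75% exon), had the largest fitted fall of the 8 when the longest span stood for each gene. It had 0.704, 1.25 and 0.416 RPKM in ischemic, 1.97, 3.07 and 2.13 RPKM in border zone and 8.01, 6.20 and 6.48 RPKM in healthy replicates 1 to 3. All ischemic libraries were below all border zone libraries, and these below all healthy libraries. The position was covered by 206 reads over the ischemic, 2074 over the border zone and 5343 over the healthy libraries. Within pigs 1 to 3 the log2 difference of ischemic over healthy was -3.33, -2.22 and -3.67. The fitted value passed under all 20 alternatives, from -3.43 to -2.16, with a highest adjusted p of 0.00641. Of 2384 positions, 44 had a lower log2 fold change.

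In border zone against healthy myocardium the log2 fold change of CD36 was -1.51 ± 0.35, a 2.84-fold fall (limma adjusted p = 0.0448), and CD36 was 1 of 5 positions called lower there. This call held in 12 of 20 alternatives. Leaving out border zone replicate 1, 2 or 3 ended it (limma adjusted p 0.178, 0.057 or 0.163), as did leaving out healthy replicate 1, 2 or 3 (0.125, 0.124 or 0.109) or ischemic replicate 1 (0.0678), and testing with no filter (0.0681). The value itself stayed between -1.81 and -1.23 over all 20 alternatives. In ischemic against border zone myocardium it was -1.57 ± 0.35 (limma adjusted p = 0.0923), and it passed by limma-voom (0.015) and without ischemic replicate 2 (-1.93, adjusted p = 0.0286). The log2 ratio of CD36 over LPL within a library was -2.93, -4.48 and -4.24 in ischemic, -1.25, -2.22 and -3.40 in border zone and -1.54, -2.37 and -2.32 in healthy replicates 1 to 3. Ischemic lay below healthy with no overlap (exact permutation p = 0.1, adjusted p = 0.3). Border zone overlapped healthy, with a mean difference of -0.21 and a higher ratio in 2 of 3 pigs (exact permutation p = 1).

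FABP3, the fatty acid binding protein of heart muscle, had 1.71, 2.97 and 0.597 RPKM in ischemic, 1.42, 2.48 and 1.57 RPKM in border zone and 4.20, 2.63 and 3.01 RPKM in healthy replicates 1 to 3. Border zone lay below healthy without overlap, and ischemic replicate 2 lay above healthy replicate 2. The log2 fold change was -1.08 ± 0.51 in ischemic (limma adjusted p = 0.147) and -0.83 ± 0.51 in border zone against healthy myocardium (adjusted p = 0.401). Without ischemic replicate 2 the first was -1.56 and passed (limma adjusted p = 0.036), and without ischemic replicate 3 it was -0.49 (adjusted p = 0.347). The longest FABP3 position (chromosome 6 from 81632894 to 81655636, minus strand) spans 22742 base pairs and holds 276 base pairs of exon. The same accession, NM_001099931, has a second position 5.64 Mb away on that chromosome, 446 base pairs that are all exon (75996929 to 75997375, minus strand). There FABP3 had 2.10, 0 and 0 RPKM in ischemic, 1.89, 6.72 and 3.07 RPKM in border zone and 18.9, 5.89 and 4.46 RPKM in healthy replicates 1 to 3. This exonic piece held 2 reads over the ischemic, 27 over the border zone and 45 over the healthy libraries, a pooled ratio of 0.136 for ischemic over healthy (exact 95% counting interval 0.0159 to 0.519). The piece passed as lower in ischemic against healthy myocardium (log2 fold change -4.84 ± 1.21, limma adjusted p = 0.0229), a larger fitted fall than that of CD36. The call of FABP3 differed between these positions, and no value here shows which is the gene body. The long span holds little exon and may not measure FABP3, so the values of its longest position carry that limit.

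ACSL1, the main acyl-CoA synthetase of heart muscle (NM_001167629, chromosome 15 from 52526606 to 52592779, minus strand, 66173 base pairs), moved least among the members that were lower in ischemic myocardium. It had 3.36, 2.42 and 2.19 RPKM in ischemic, 3.46, 4.24 and 2.28 RPKM in border zone and 4.68, 3.62 and 3.50 RPKM in healthy replicates 1 to 3. The ischemic libraries lay below the healthy ones without overlap, by 1.47-fold on average (log2 fold change -0.56 ± 0.29, limma adjusted p = 0.181). It passed with quantile normalization (-0.85, adjusted p = 0.0466). Border zone overlapped healthy, at -0.27 ± 0.29 (adjusted p = 0.656). With 785 reads over the ischemic libraries, ACSL1 had the most reads of the members there.

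CPT1A, the liver-type carnitine palmitoyltransferase, had 1.76, 0.628 and 1.51 RPKM in ischemic, 1.75, 1.26 and 1.26 RPKM in border zone and 0.738, 0.588 and 0.931 RPKM in healthy replicates 1 to 3. It was higher than healthy in 3 of 3 pigs in both zones, without overlap for the border zone. The log2 fold change was 0.62 ± 0.37 in ischemic (limma adjusted p = 0.241) and 0.84 ± 0.37 in border zone against healthy myocardium (adjusted p = 0.233). Without ischemic replicate 2 the first was 1.04 and passed (limma adjusted p = 0.0233), and without ischemic replicate 1 it was 0.36 (adjusted p = 0.519). Its accession, NM_001129805, also lies in 2 positions on chromosome 2, 6.18 kb apart and on opposite strands. The longer spans 29287 base pairs (2844854 to 2874141, plus strand) and the shorter 9359 base pairs (2829311 to 2838670, minus strand). At the shorter, CPT1A had 2.55, 1.40 and 1.21 RPKM in ischemic, 1.32, 0.641 and 1.27 RPKM in border zone and 1.17, 1.15 and 0.982 RPKM in healthy replicates 1 to 3, with log2 fold changes of 0.53 in ischemic and -0.09 in border zone against healthy myocardium. The higher border zone level therefore did not extend to both pieces. CPT1B, the muscle-type enzyme of the same step, is listed at 0 in every library, so no ratio of the 2 types was formed. This 0 does not show that CPT1B was silent.

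PPARA, the fatty acid receptor (NM_001044526, chromosome 5 from 470101 to 488440, plus strand, 18339 base pairs), had 0.383, 0.526 and 0.494 RPKM in ischemic, 1.95, 2.32 and 0.673 RPKM in border zone and 3.16, 2.88 and 1.44 RPKM in healthy replicates 1 to 3. The ischemic libraries lay below every other library, on 15, 11 and 8 reads, while border zone and healthy overlapped. PPARA fell 4.37-fold in ischemic against healthy myocardium (log2 fold change -2.13 ± 0.46, limma adjusted p = 0.0132). It passed under all 19 alternatives that could give a value, from -2.47 to -1.21. The highest limma adjusted p was 0.0495, without healthy replicate 2. With an ischemic mean of 0.468 RPKM, under the filter value of 0.5, PPARA passed the filter through the other zones. In ischemic against border zone myocardium it was -1.47 ± 0.46 (adjusted p = 0.179), and in border zone against healthy -0.66 ± 0.46 (adjusted p = 0.473). Pig 3 had the lowest PPARA level in both border zone and healthy myocardium.

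PDK4, the kinase that shuts off pyruvate dehydrogenase (NM_001159306, chromosome 9 from 82625083 to 82638263, minus strand, 13180 base pairs), had 4.23, 8.05 and 11.7 RPKM in ischemic, 7.82, 14.9 and 15.8 RPKM in border zone and 11.9, 18.2 and 16.6 RPKM in healthy replicates 1 to 3. Pig 1 was lowest in each zone, and each pig had its lowest level in ischemic and its highest in healthy myocardium. The unpaired log2 fold change of ischemic over healthy was -1.05 ± 0.43 (limma adjusted p = 0.103). With pig as a block the same value passed (adjusted p = 0.0206), as it did by limma-voom (-1.17, adjusted p = 0.0218). The within-pig differences were -1.47, -1.17 and -0.50. Border zone against healthy gave -0.32 ± 0.43 (adjusted p = 0.735). Even in ischemic myocardium PDK4 kept a mean of 7.98 ± 3.72 RPKM (SD, n = 3), against 0.468 ± 0.0747 RPKM for its regulator PPARA.

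Levels can be ordered across members, since RPKM is per length, but the order holds only for the longest span of each gene. LPL is read on 234 base pairs of exon and the others mostly on introns, and the other position of FABP3 had 9.75 ± 7.95 RPKM in healthy myocardium, above the mean of CD36. In healthy myocardium LPL led with 29.5 ± 5.25 RPKM (mean ± SD, n = 3), followed by PDK4 (15.6 ± 3.28), CD36 (6.89 ± 0.976), ACSL1 (3.93 ± 0.649), FABP3 (3.28 ± 0.821), PPARA (2.49 ± 0.919), ANGPTL4 (0.853 ± 0.485) and CPT1A (0.752 ± 0.172). Neighbours from ACSL1 to PPARA, and ANGPTL4 and CPT1A, did not differ beyond their spread. In ischemic myocardium ANGPTL4 came after LPL (15.2 ± 12.9) and PDK4, with 4.23 ± 3.04 RPKM, and CD36 was next to last with 0.789 ± 0.422 RPKM. Border zone levels of CD36 (2.39 ± 0.591) and ANGPTL4 (2.45 ± 0.954) were alike within their spread.

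Ischemic replicate 2 was the ischemic library nearest to the healthy mean for 6 of the 8 members, and it also had the highest sum of heart muscle markers of its group, 203 RPKM against 134 and 60.1 in ischemic replicates 1 and 3. Without it 5 members passed in ischemic against healthy myocardium, CD36, PPARA and FABP3 as lower and ANGPTL4 and CPT1A as higher, while 29.3% of all positions passed, 9.31% as lower and 20% as higher. Without ischemic replicate 1 or 3, 2 members passed, both lower. Ischemic replicate 2 was singled out by the levels of these same members. Leaving it out therefore widens most of their differences, and the added calls are no support for them. The part of tissue makeup in the levels of this library was not tested.

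The heart muscle markers fell along with CD36 and PPARA. Of the 8 tested, 6 fell in ischemic against healthy myocardium (all 8 with pig as a block, with adjusted p of 0.0271 for TNNI3 and 0.0303 for MYH7). ACTN2, PLN, CSRP3 and ATP2A2 kept their call in 18 of 18 alternatives, TNNT2 in 8 and MYL2 in 7, and both were lost when any 1 library other than ischemic replicate 2 was left out. The median log2 fold change of the list was -2.51, between those of CD36 and PPARA. Set against the summed markers of its own library, CD36 had 0.526, 0.613 and 0.692 RPKM per 100 RPKM of markers in ischemic replicates 1 to 3, 1.14 to 1.43 in border zone replicates and 1.48, 1.72 and 2.03 in healthy replicates 1 to 3. No group overlapped another. By that measure 2.01% of all positions lay lower in ischemic than in healthy myocardium without overlap, 0.168% lower in border zone than in healthy, and 3.15% lower in ischemic than in border zone. MYH7 makes up 46.5% of the marker sum in ischemic and 37.2% in healthy myocardium. When the mean of the log2 levels of the 8 markers served instead, the CD36 groups also did not overlap, with a mean difference of -0.81 for ischemic over healthy, -0.50 for border zone over healthy and -0.31 for ischemic over border zone. By this measure 0.839% of all positions were lower in ischemic than in healthy without overlap, 0.168% lower in border zone than in healthy, and 1.22% lower in ischemic than in border zone.

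The result differed between single markers. Per marker, the mean log2 ratio of CD36 in ischemic minus healthy myocardium ran from -1.67 (TNNI3) to -0.11 (CSRP3), and the groups did not overlap for 4 of 8 markers, TNNT2, TNNI3, MYH7 and ATP2A2, while they overlapped for ACTN2, PLN, CSRP3 and MYL2. Against ACTN2 the difference was -0.11 and against PLN -0.21. In ischemic against healthy myocardium CD36 therefore fell about as far as ACTN2, PLN and CSRP3, and farther than the markers that fell less. In ischemic minus border zone myocardium the ratio ran from -1.33 (MYH7) to 0.66 (CSRP3), and was also above 0 for ACTN2 (0.45) and PLN (0.10). The groups overlapped there for 5 of 8 markers. In border zone minus healthy myocardium it ran from -0.83 to -0.30, with overlap for 4 of 8.

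PPARA overlapped between all groups in proportion to the same markers, with 0.286, 0.258 and 0.821 RPKM per 100 RPKM of markers in ischemic and 0.584, 0.802 and 0.452 in healthy replicates 1 to 3. LPL and PDK4 overlapped too by the summed markers. FABP3, ACSL1, CPT1A and ANGPTL4 were higher in ischemic than in healthy myocardium in that proportion without overlap, as were 64.6% of all positions. In border zone ACSL1, CPT1A and ANGPTL4 were, as were 67.7% of all positions. With the mean log2 level of the markers the same held, and PDK4 joined them in ischemic myocardium, beside 76.4% of all positions for ischemic and 70.1% for border zone over healthy. FABP3 was also higher in ischemic than in border zone myocardium by that measure, beside 35.3% of all positions. ANGPTL4 had 3.10, 0.605 and 12.2 RPKM per 100 RPKM of markers in ischemic and 0.238, 0.0912 and 0.296 in healthy replicates 1 to 3. This proportion was chosen after the values were seen and is a description without a test.

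**Figure D3:**
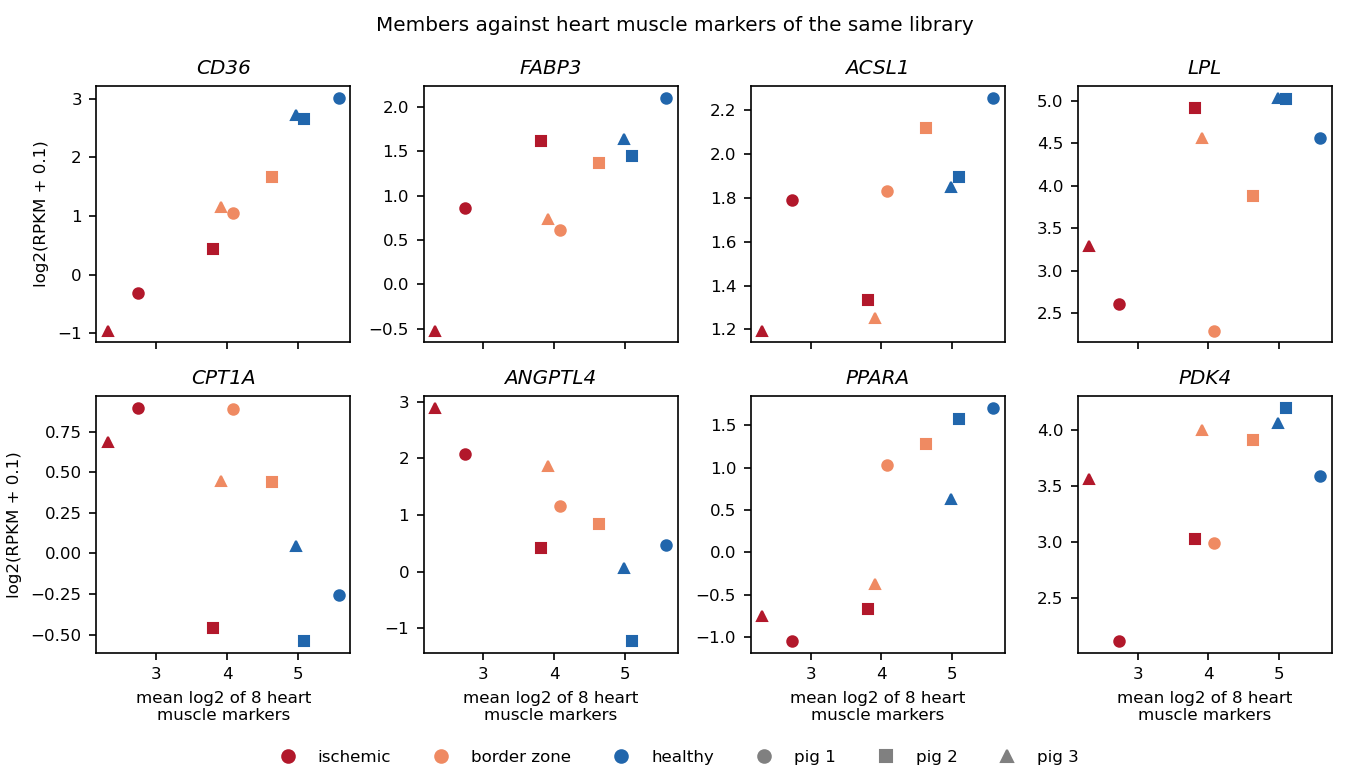
Level of each member as log2(RPKM + 0.1) against the mean log2 level of 8 heart muscle markers in the same library, coloured by group, with a symbol for each pig. CD36 and the markers are both lowest in the ischemic and highest in the healthy libraries, while ANGPTL4 is highest where the markers are lowest, in ischemic replicate 3.

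Markers of other cell types moved as well. All 4 macrophage markers tested rose in both zones against healthy myocardium. MSR1, SPP1 and CD80 averaged 0.0938, 0.124 and 0.399 RPKM in healthy myocardium, under the filter value of 0.5, and passed it through the other zones. That all those tested rose was therefore partly set by the filter. CD80 kept its call in 9 of 17 alternatives in ischemic and 7 of 17 in border zone, and CD14 in 15 of 18 in border zone. Macrophages are known to transcribe CD36, LPL and ANGPTL4. Of 3 endothelial markers, PECAM1 and ENG rose in ischemic myocardium, with calls kept in 15 and 13 of 18 alternatives, and the 3 summed to 8.28 to 11.7 RPKM in ischemic, 5.46 to 7.57 RPKM in border zone and 4.61 to 5.67 RPKM in healthy libraries. The adipocyte list, with 6 of 7 genes in the table and none of these at 0 over all libraries, summed to 1.41 to 2.73, 1.69 to 2.39 and 1.73 to 2.18 RPKM in the same order, and 0 of its 2 tested genes passed in limma, with 1 at an unadjusted p under 0.05 in ischemic against healthy myocardium and LEP called higher there by limma-voom. The LEP position spans 725006 base pairs with 131 of exon, and that of ADIPOQ 173380 with 259. Both may not measure these genes, and the adipocyte sum carries that limit. Of 5 fibroblast markers tested, COL1A2 (0.81) and COL3A1 (0.82) rose in ischemic against healthy myocardium (adjusted p = 0.0363 and 0.0306, calls kept in 8 and 11 of 18 alternatives and ended by median scaling), while DCN (-0.57) and LUM (-0.63) did not pass. The list summed to 12.2 to 16.7 RPKM in ischemic, 10.4 to 12.7 RPKM in border zone and 8.46 to 11.6 RPKM in healthy libraries. Of 2 smooth muscle markers tested, TAGLN rose (1.38, adjusted p = 0.00175, kept in 17 of 17), and that list summed to 4.47 to 4.77, 2.92 to 3.71 and 2.39 to 3.15 RPKM in the same order. The part of these cells in the levels of the members was not tested.

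Among other genes of uptake, activation and carriage, calls in ischemic against healthy myocardium went both ways. Of 30 listed, 18 were in the table and 10 passed the filter, of which 3 rose, 2 fell and 5 did not pass, with a median log2 fold change of 0.18 against 0.21 over all positions. SLC27A1, a fatty acid transport protein beside CD36, fell (-1.47 ± 0.25, limma adjusted p = 0.00442), and so did VLDLR, a receptor for triglyceride-rich lipoproteins (-1.22 ± 0.27, adjusted p = 0.0149, and 0.0503 without healthy replicate 3). The synthetases ACSL4, which prefers polyunsaturated fatty acids (1.89 ± 0.30, adjusted p = 0.0033), and ACSL5 (1.48 ± 0.29, adjusted p = 0.0089) rose. ACSL5 averaged 0.306 RPKM in healthy myocardium and passed the filter through the other zones. FABP5, another fatty acid binding protein, was not called (0.23, adjusted p = 0.52) at 7.68 ± 1.45 RPKM in ischemic and 6.56 ± 1.32 RPKM in healthy myocardium. ACSL4 and ACSL5 also rose in border zone against healthy myocardium, with adjusted p of 0.0397 and 0.0265, calls kept in 5 of 18 alternatives for ACSL4 and 10 of 17 for ACSL5. The log2 ratio of ACSL1 over ACSL4 was -0.33, -0.16 and -0.67 in ischemic, 0.08, 1.40 and -0.05 in border zone and 2.35, 1.76 and 2.09 in healthy replicates 1 to 3. ACSL1 thus exceeded ACSL4 in each healthy library and lay below it in each ischemic one.

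Beside CPT1A, 10 genes of the carnitine shuttle and its control by malonyl-CoA were listed. Of these 6 were in the table and 2 passed the filter, and both fell in ischemic against healthy myocardium. ACACB makes the malonyl-CoA that inhibits CPT1, and fell to 0.417 ± 0.217 RPKM in ischemic, against 2.41 ± 0.211 RPKM in healthy myocardium (log2 fold change -2.36 ± 0.34, limma adjusted p = 0.00258). CRAT, carnitine acetyltransferase, fell as well (-1.80 ± 0.39, adjusted p = 0.0129). None of the 2 passed in border zone against healthy myocardium in limma, while 1 had an unadjusted p under 0.05 and ACACB passed by limma-voom (adjusted p = 0.0156). The ischemic mean of ACACB was under the filter value of 0.5, and ACACB passed the filter through the other zones. That both tested genes fell in ischemic myocardium was therefore partly set by the filter. Among genes the filter kept out, which were not tested, were CPT2 (0.205 RPKM in ischemic, 0.231 in healthy), CROT (0.372, 0.472) and ACACA (0.414, 0.399).

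PPARA was set beside 20 listed nuclear receptors and coactivators, of which 12 were in the table and 8 passed the filter. In ischemic against healthy myocardium 2 rose, 1 fell and 5 did not pass. The fall was that of RXRG, a retinoid X receptor, the class that pairs with PPARs on DNA (-2.53 ± 0.43, limma adjusted p = 0.00507). RXRG averaged 0.234 RPKM in ischemic myocardium, on 41 reads. That is under the filter value of 0.5, and RXRG passed the filter through border zone (0.933 RPKM) and healthy myocardium (1.64 RPKM). PPARD, the sister receptor of PPARA, rose with 1.54 ± 0.42 (limma adjusted p = 0.0278). PPARD kept its call in 11 of 17 alternatives, and lost it when a single healthy library or ischemic replicate 1 or 3 was left out, with a highest adjusted p of 0.0748. The log2 ratio of PPARA over PPARD was -2.97, -1.12 and -1.86 in ischemic, -0.96, 0.40 and -1.37 in border zone and 2.09, 1.89 and 1.07 in healthy replicates 1 to 3. Both zones lay below healthy without overlap. This ratio and that of ACSL1 over ACSL4 were chosen after the values were seen and carry no test. PPARGC1A and KLF15, further regulators of these genes, are listed at 0 in every library. Of the 4882 positions, 1027 had no read in any library. A listed 0 may mean that a position was not measured, and does not show that the gene was silent.

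Of 12 genes of pyruvate dehydrogenase and its control listed beside PDK4, 5 were in the table and 4 passed the filter. In limma 0 of them passed in ischemic against healthy myocardium, with 1 at an unadjusted p under 0.05, and DLD passed in 4 of 18 alternatives. DLD, a subunit of this enzyme, was -0.79 ± 0.29 (limma adjusted p = 0.075, and 0.0204 with pig as a block), and PDK1, a hypoxia-induced kinase of the same family as PDK4, was -0.11 (adjusted p = 0.786).

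Genes of triglyceride stores were higher where limma called them, among those that passed the filter. Of 20 listed, 16 were in the table and 7 passed the filter, of which 3 rose in ischemic against healthy myocardium, 0 fell and 4 did not pass, with a median of -0.18. PLIN2, which coats lipid droplets, rose to 5.87 ± 1.52 RPKM in ischemic, against 1.67 ± 0.403 RPKM in healthy myocardium (log2 fold change 1.75 ± 0.31, limma adjusted p = 0.00564). The mitochondrial carrier UCP2 rose too (2.27 ± 0.39, adjusted p = 0.00516), as did the fatty acid synthase FASN (1.90 ± 0.44, adjusted p = 0.0169, lost for FASN without healthy replicate 3 or ischemic replicate 1, with a highest adjusted p of 0.0533). In healthy myocardium UCP2 (0.381 RPKM) and FASN (0.440) averaged under 0.5 RPKM, and they passed the filter through the other zones. Of genes the filter kept out, UCP3 (0.140 RPKM in ischemic, 0.637 in healthy) and PLIN5 (0.0193, 0.544) were lower. SCD (0.609, 0.0816) and DGAT2 (0.637, 0.0863) were higher, and none of these was tested. PLIN2 and UCP2 also passed in border zone against healthy myocardium (adjusted p = 0.0498 and 0.0322), calls kept in 3 of 18 and 8 of 17 alternatives. Of the 13 calls of these 5 lists in ischemic against healthy myocardium, 9 were kept in every alternative that could give a value, and of the 4 in border zone against healthy 0 were. In ischemic against border zone myocardium limma called 0 genes of the 5 lists.

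**Figure D4:**
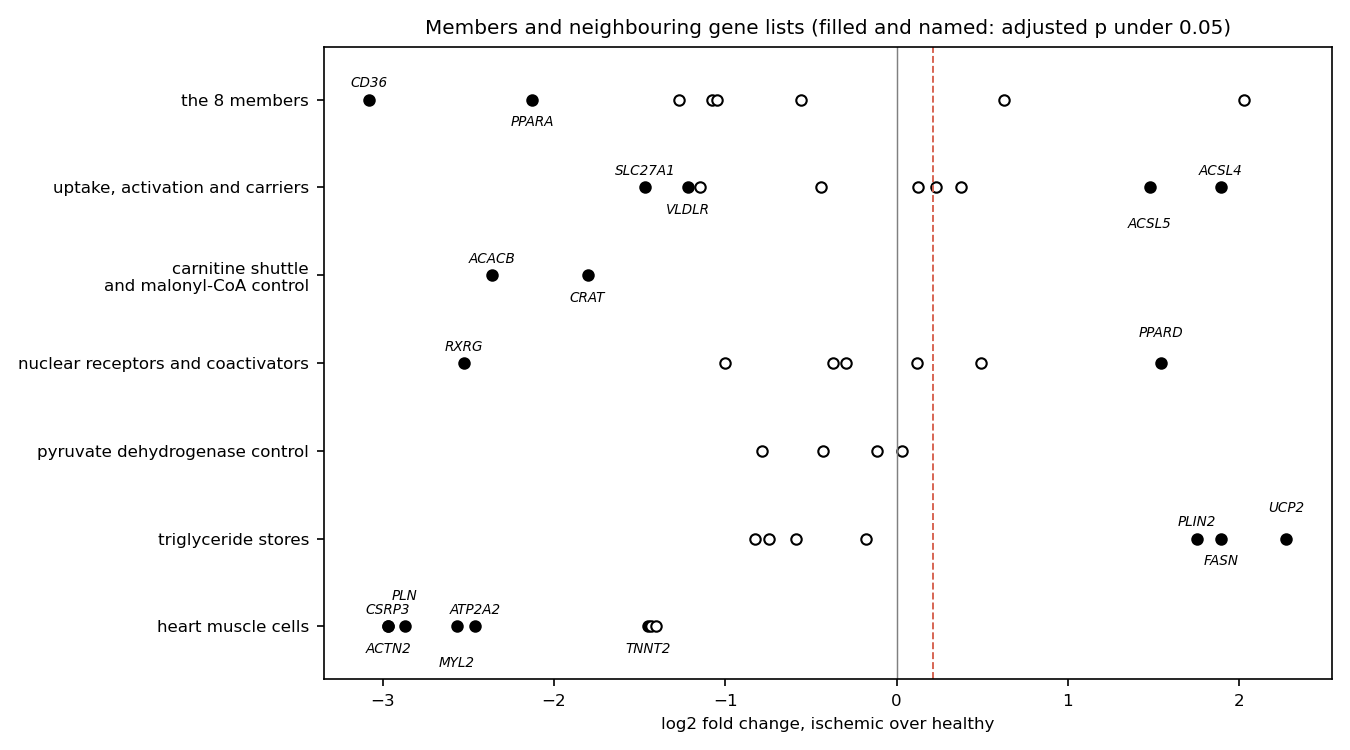
Log2 fold change of ischemic over healthy myocardium for the members, 5 lists of neighbouring genes and the heart muscle markers, 1 symbol per gene reported here that passed the filter, filled and named for an adjusted p under 0.05, with a dashed line at the median of all positions (0.21). PPARA (-2.13) lies within the range of the heart muscle markers (-2.97 to -1.41) and CD36 (-3.08) just below it, and ACSL4, PPARD, PLIN2, FASN and UCP2 are on the right.

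The genes most like a member over the 9 libraries were taken by Pearson correlation of log2 levels among 2013 other genes, as a description. The points share their 3 pigs and the contrast of the zones, and many genes follow that contrast. CD36 was most like ACACB, described above (r = 0.99), the laminin gene LAMC1 (r = 0.99) and CAST, which encodes the calpain inhibitor calpastatin (r = 0.99). FABP3 was most like MYH7, the slow myosin heavy chain (r = 0.96), and ATP5E, a subunit of ATP synthase (r = 0.96). ANGPTL4 was most like an unnamed locus (LOC100511639, r = 0.96), PTX3, a secreted protein of inflammation (r = 0.96), and the galectin gene LGALS9 (r = 0.96). CPT1A was most like PHLDA2 (r = 0.98), PPARA like ARPC1A (r = 0.96), ACSL1 like CHTOP (r = 0.97), LPL like CITED1 (r = 0.92) and PDK4 like MOCS2 (r = 0.90).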

How the data were processed

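GRO-seq libraries from the myocardium of 3 pigs were compared as 3 groups of 3. The authors aligned reads to susScr3 with Bowtie, per the submitters' processing notes, and deposited RPKM for 4882 positions. The header names span and exon length in base pairs. No source used here gives the counting program, its strand setting or how duplicates were handled. The total of each library was inferred from its own RPKM values, as the number that turns them into whole reads over their spans. Read counts were then recovered from RPKM, span and this total, and 100% of nonzero values came out whole to within 0.01 reads. The total was fitted to give whole reads, so this is not an independent check. Of counts from 1 to 30, 53.2% in ischemic replicate 3 were multiples of 3, so reads are not known to be independent molecules and intervals cover counting error only. Symbols came from a Sscrofa11.1 RefSeq table, which matched 4793 positions.

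The test took positions that averaged 0.5 RPKM or more, on log2(RPKM + 0.1) with limma 3.58.1 in R 4.3.3 (3 groups, 9 libraries, eBayes with trend and robust settings, Benjamini-Hochberg, threshold 0.05). A position low in 1 group could pass this filter through the others, so the share of a list that was called depends on the filter. Only group was a term. The labels tie replicate numbers to pigs, so pig as a block was an alternative, and p-values measure the spread between these 3 pigs. The correlation of deviations from the group means was -0.04 to 0.18 for libraries of the same pig, and -0.16 to 0.08 for libraries of different pigs in different groups. Ratios within libraries used an exact permutation test in scipy 1.17.1. Of the planned pairs 2 were dropped, because CPT1B is listed at 0 and no position was matched to PDHA1. Alternatives were the pseudocount, filter, scaling, limma-voom, the groups in the fit, the position that stands for a gene and each library left out. Python 3.11.15, numpy 2.4.6, pandas 2.3.3 and matplotlib 3.10.9 served for tables and plots. Members and lists were chosen with earlier results of these data known. Named genes were the members, called genes of the lists, relatives of a member and the most similar genes. Some called genes of the lists are counted but not reported here by name or plotted.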

Additional observations from a re-analysis of the deposited data

How the results depend on the processing

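Of 158 values of single members under an alternative in each comparison, 148 kept their direction and side of the threshold. In ischemic over healthy the other 10 newly passed. The 659 positions called there became 346 with the filter at 2 RPKM, and the 2 members called became 4 with the replicate block (pig), which gave 752, 205 and 29 positions in the 3 comparisons, and 4 by limma-voom. Beside the calls of ANGPTL4, PDK4, DLD, TNNI3 and MYH7 given above, the block added that of the fibroblast marker POSTN in ischemic over healthy (adjusted p = 0.0206) and those of PPARD (0.028) and the muscle marker ATP2A2 (0.0447) in border zone over healthy, and changed no other call of a member or list gene. The 143 positions called in border zone over healthy became 86 and 48 with pseudocounts of 0.5 and 1, 95 with no filter, 76 with the filter at 2 RPKM, 84 with median scaling, 85 with quantile normalization and 296 by limma-voom, and the 1 member called became 0 with no filter. The 27 positions in ischemic over border zone became 10 and 10 with the pseudocounts, 3 with no filter, 8 with median scaling, 5 with quantile normalization, 92 by limma-voom and 1 with only the groups compared, and the 0 members called became 1 by limma-voom. With 1 library left out, positions called ranged from 362 to 698, 36 to 174 and 0 to 39 in the 3 comparisons, and members called from 2 to 5, 0 to 1 and 0 to 1, the lowest and highest without healthy replicate 2, border zone replicate 1 or healthy replicate 3 and without ischemic replicate 2 for positions. The cause was not tested.

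Signs turned only for values that did not pass. In border zone over healthy CPT1A was -0.086 when the position with the highest mean stood for the gene, and PDK4 ranged from -0.50 to 0.0043 with 1 library left out. In ischemic over border zone, LPL was -0.29 with quantile normalization, and CPT1A 0.00088 with both positions summed (added after the data were seen) and 0.62 at the highest mean. With 1 library left out there, FABP3 ranged from -0.74 to 0.33, LPL from -0.63 to 0.52, CPT1A from -0.48 to 0.20 and ANGPTL4 from -0.041 to 1.197. Depth limits LPL, PPARA and ANGPTL4 most, with 13, 34 and 119 reads over the ischemic libraries.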
